A study of Homo sapiens with 21 samples.

Results

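Of 26861 chromatin regions bound by estrogen receptor beta (ER-beta) in estradiol-treated breast cancer cells, 1391 lay in introns and held an estrogen response element that departed from the canonical palindrome by 1 base. The canonical element (ERE) is GGTCANNNTGACC, a pair of inverted 5-base arms around a 3-base spacer, with 10 fixed positions and any base at N. A region was taken when its summit, the base of highest signal, fell in an intron of a protein-coding transcript, outside every protein-coding exon and every promoter, set as the stretch from 1000 bp before a transcription start site (TSS) to 100 bp after it. In addition, the best match to the palindrome on either strand, lying whole within 100 bp of the summit, had to have exactly 1 mismatch. The 1391 regions were 12.8% of the 10870 intronic regions of the estradiol list. Among the other intronic regions, 170 had a perfect palindrome near the summit, 3553 had a best match with 2 mismatches and 5756 had 3 or more. The choice used position and sequence only, not the height of any region.

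The cells were MDA-MB-231, an established triple-negative breast cancer line, carrying a doxycycline-inducible Flag-tagged full-length ER-beta. This was 1 engineered line, and every group, the controls included, received doxycycline at 100 ng/ml for 24 h, so no group lacked the induced receptor. Cells were then treated for 3 h with ethanol vehicle, with 1 nM estradiol or with LY500307. The LY500307 dose stands as 1 nM in the sample titles and as 10 nM in the sample characteristics and treatment protocol, and the labels do not settle it. Chromatin was precipitated with the M2 antibody to Flag (ChIP-seq). Each treatment has 4 ChIP and 3 input libraries, 21 in all, although the treatment protocol and design text speak of triplicates. The deposited lists hold 1 pooled call per treatment, and which of its ChIP libraries entered it is not stated in the sources used here: 26861 regions for estradiol, 10045 for LY500307 and 2905 for vehicle on the 22 autosomes, X and Y. No replicate error can be taken from them and no difference was tested. Intervals are 95% Wilson intervals for shares and order-statistic intervals for medians, and they cover counting error only. The read depth behind the lists is unknown. Each list was scaled by its own treatment and input, so fold values of the 3 lists stand side by side and do not measure a change.

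Estrogen receptors are ligand-activated transcription factors of the nuclear receptor family. They bind the ERE as a dimer, and each zinc-finger DNA-binding domain reads 1 arm of the palindrome. Most natural elements known from estrogen-responsive genes are imperfect palindromes, and many lie in introns or far from promoters. Estradiol is the main natural ligand of both receptors, ER-alpha and ER-beta, while LY500307 is a synthetic agonist selective for ER-beta.

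Each list gives a region's fold, its enrichment over local background at the summit, and its −log10 q, the peak caller's corrected significance, both as the authors deposited them. The elements of the 10 members with the highest −log10 q in the estradiol list are printed here to show how the single mismatch varies at the strongest sites. Each run is 25 bases long, the 13-base element with 6 bases on either side, 5′ to 3′, in hg38 coordinates. It was turned so that the mismatched arm came first. Capitals mark the fixed bases that match the palindrome. The lower-case base among the first 5 element bases is the mismatch, the 3 lower-case bases in the middle are the spacer, and the outer 6 on each side are flanks. Substitutions are named by the consensus base, the position counted from 1 at the 5′ end of the turned element, and the base found: T3G means that the palindrome has T at position 3 and the element G.

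IGFBP4, chr17:40448862-40448886, minus strand, T3G: gcacttGGgCActcTGACCctgccc
RARA, chr17:40322486-40322510, plus strand, G1T: aggcagtGTCAccgTGACCcactcg
RBM47, chr4:40548458-40548482, plus strand, G2A: tagaagGaTCActcTGACCacaatg
KDM4B, chr19:4970932-4970956, minus strand, T3A: aggccaGGaCAgtcTGACCcgtcct
RALGPS1, chr9:127139270-127139294, minus strand, G1A: ctcactaGTCAgagTGACCcaggaa
SPINK4, chr9:33221447-33221471, minus strand, T3G: ggttcaGGgCAgccTGACCcttcag
CUEDC1, chr17:57948376-57948400, plus strand, C4G: cccccgGGTgAtgcTGACCaggaac
GSE1, chr16:85306284-85306308, minus strand, G1T: ccagagtGTCAacgTGACCcagcca
CASTOR2, chr7:75001037-75001061, plus strand, T3G: gacacaGGgCAtggTGACCctgcag
LMAN1L, chr15:74817585-74817609, minus strand, T3A: agccaaGGaCAatgTGACCaggctg

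Position 3 carried the mismatch in 5 of these 10 elements (IGFBP4, KDM4B, SPINK4, CASTOR2 and LMAN1L), and none had it at position 5. Intron 1 held 7 of the regions, while those of SPINK4, LMAN1L and RALGPS1 lay in introns 2, 4 and 8. All 10 regions overlapped a region in each of the other lists. The highest fold was at IGFBP4, which encodes an insulin-like growth factor binding protein and is a long-known estrogen target. Its region lay in intron 1, 5.38 kb from the nearest TSS, at a fold over background of 183.5 under estradiol, 112.7 under LY500307 and 30.8 under vehicle. The region in intron 1 of RARA, the gene of retinoic acid receptor alpha, came next, at 180.0, 102.1 and 28.8 in that order. GSE1, a gene for a coiled-coil protein, had the third highest estradiol fold of any member, 167.5, and 58.9 under LY500307 and 13.2 under vehicle. Its region was the most distant of the 10, at 136.8 kb from the nearest TSS, whereas that of KDM4B, the gene of a histone H3 lysine 9 demethylase, lay 1.82 kb from one. At KDM4B the folds were 149.2, 76.8 and 38.6. Estradiol folds of the other 6 regions ran from 127.0 at LMAN1L to 159.9 at RALGPS1. In every one of the 10 the estradiol fold was the highest and the vehicle fold the lowest. The 10 were chosen by their estradiol −log10 q, so the choice itself favoured a high estradiol fold. Over all overlapping estradiol regions, the estradiol fold was above the LY500307 fold in 94.4% of pairs and above the vehicle fold in 88.7%.

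The wider setting of the leading element is shown for IGFBP4, since several features counted further on (other arms of the palindrome, other factors' letters) are read from windows of this kind. The run covers the 201 bases centred on the estradiol summit on the plus strand, and capitals mark the fixed bases of the element that match. On this strand the intact arm comes first.

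IGFBP4 window, chr17:40448733-40448933, plus strand: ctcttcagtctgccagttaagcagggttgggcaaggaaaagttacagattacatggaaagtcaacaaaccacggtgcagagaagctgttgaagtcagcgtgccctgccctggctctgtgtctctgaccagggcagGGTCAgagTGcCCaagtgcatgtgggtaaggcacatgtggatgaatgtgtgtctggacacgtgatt

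The median estradiol fold of the members was 14.3 (interval 13.4 to 15.4, n = 1391), against 10.1 (9.97 to 10.4, n = 10870) for all intronic regions and 9.5 (9.45 to 9.63, n = 26861) for the whole list. Folds ran from 3.45 at ATXN10 to 183.5 at IGFBP4, and the middle 80% of members lay between 6.64 and 60.3. Intronic regions with a perfect palindrome had a median of 14.5 (11.8 to 18.5, n = 170), an interval that holds the members' median. Those with 2 mismatches had 12.7 (12 to 13.2, n = 3553), and those with 3 or more had 8.40 (8.05 to 8.49, n = 5756). One-mismatch regions between genes had 15.2 (14.4 to 16.0, n = 1561), and this interval overlaps that of the members. The order of medians was thus intergenic 1 mismatch, intronic perfect, intronic 1 mismatch, intronic 2 mismatches, and the neighbouring intervals overlapped among the first 3 only. Base composition differed along the same series: the median GC content of the 201-base windows was 50.2% in members, 50.5% with a perfect palindrome, 52.7% with 2 mismatches and 55.7% with 3 or more. The part of base composition in the fold was not tested.

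The element sat close to the summit. The median distance from the summit to the centre of the element was 15 bp (14 to 16), and 72.3% of members (69.8 to 74.5%) had it within 25 bp, 90.2% within 50 bp. The rule itself keeps the element within 100 bp. Closeness was not particular to the members. Intronic regions with a perfect palindrome had 14 bp (13 to 16) and 77.1% within 25 bp, and those with 2 mismatches 18 bp (17 to 19) and 64.5%. In windows of the same size placed 2000 bp downstream of the 10870 intronic summits, the best match had 1 mismatch in 69 (0.635%), against 12.8% at the summits. The summit was found on the side of the intact arm in 699 members, on the side of the mismatched arm in 679 and exactly at the centre in 13. The share on the intact side among the first 2 groups was 50.7% (48.1 to 53.4%), an interval that holds an equal split. The distance was shorter in stronger regions. When members were placed in the 4 quartiles of −log10 q of the whole estradiol list, the median distance was 31.5 bp in the lowest quartile (24 to 36, n = 132), 20 bp in the second (18 to 22, n = 304), 14 bp in the third (13 to 16, n = 417) and 13 bp in the highest (11 to 14, n = 538).

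**Figure D1:**
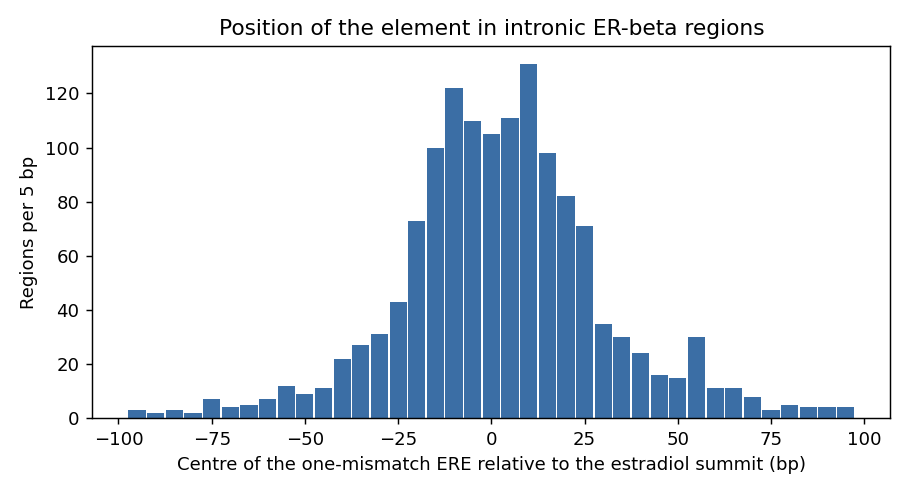
Position of the element relative to the estradiol summit. The horizontal axis is the distance of the element's centre from the summit in bp, negative towards lower coordinates, and the vertical axis the number of members per 5 bp; counts are highest near the summit, and the bar at 55 bp (30 members) stands above its neighbours (15 and 11).

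At the edge of the window, the 3 members with the most distant element were SYNJ2, KCP and KCNJ12, with the element 93 to 94 bp from the summit and estradiol folds of 36.5, 55.9 and 8. Just outside were EHD4 at 95 bp, TOM1L2 at 96 bp and SLC2A12 at 97 bp, with folds of 7.7, 12.3 and 6.7. Their best whole match inside the window had 2 mismatches. The 35 members in the outermost 20 bp of the window had a median fold of 8.91, and the 18 regions in the next 20 bp outside had 8.08.

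Across the 3 lists, 584 of the 1391 members (42.0%, 39.4 to 44.6%) overlapped an LY500307 region by at least 1 bp, against 33.8% of all estradiol regions. Vehicle regions overlapped 140 members (10.1%, 8.59 to 11.8%), against 9.26% of all estradiol regions, a share inside the members' interval. Overlap with both lists was found for 139 members (9.99%), against 8.01% of all estradiol regions. LY500307 but not vehicle regions overlapped a further 445 members (32.0%), against 25.8% of all estradiol regions. No partner in either list was found for 806 (57.9%), against 64.9%. The remaining member was in the estradiol and vehicle lists but not in the LY500307 list: a region in an intron of SBDS, whose product acts in ribosome maturation, at a fold of 14.9 under estradiol and 8.76 under vehicle. SBDS is named because it was the single case, after its values were seen. Of the 140 members in the vehicle list, 139 were therefore in the LY500307 list as well, beside 86.5% of all estradiol regions with a vehicle region.

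Sharing followed the estradiol fold. The median estradiol fold was 77.9 (68.9 to 88.1) for members in all 3 lists, 28.5 (26.8 to 30.4) where LY500307 was the only partner and 9.34 (8.98 to 9.73) for those in the estradiol list alone. The regions of all 3 lists had a median LY500307 fold of 27.8 and a median vehicle fold of 8.96, and those of estradiol and LY500307 had a median LY500307 fold of 8.98. Of the 338 members with an estradiol fold of 30 or more, 334 (98.8%) overlapped an LY500307 region. Of the 469 members with a fold under 10, 11 (2.35%) did. These 2 shares were taken for members only. In the highest quartile of −log10 q, 90.9% of all estradiol regions overlapped an LY500307 region, beside 89.8% of members. Median GC content was 53.7% for members in all 3 lists, 50.7% where LY500307 was the only partner and 49.5% in the estradiol list alone. The median distance to the nearest TSS was 8807, 18576 and 17023.5 bp in the same order. The part of either in the sharing was not tested.

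**Figure D2:**
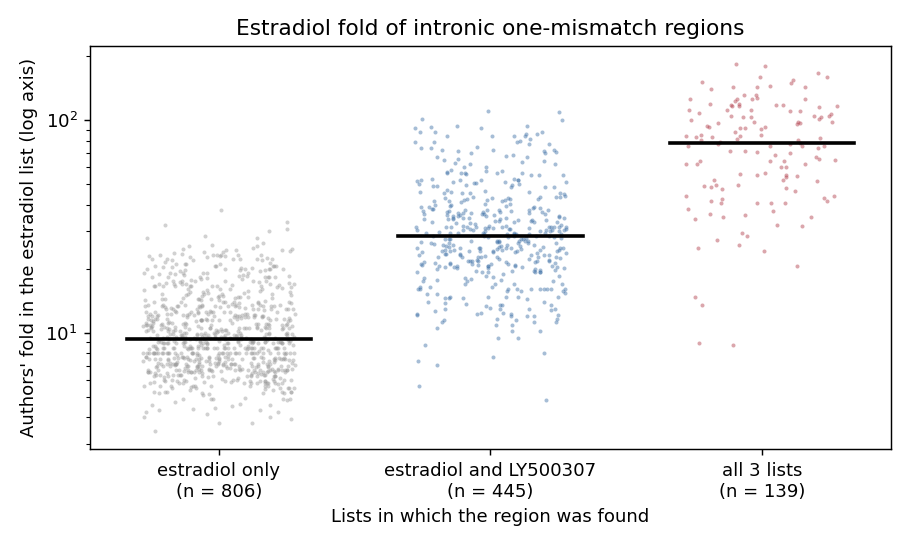
Estradiol fold of the members by the lists in which they were found. The vertical axis is the authors' fold on a log scale, each point is 1 region and the bars are medians; the medians rise from 9.34 (estradiol list alone, n = 806) through 28.5 (n = 445) to 77.9 (all 3 lists, n = 139), and the clouds overlap.

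Shares were also set side by side at like strength. Cut points for the quartiles were 8.43, 16.5 and 50.7 in −log10 q, and the members were spread as 132, 304, 417 and 538 (9.49, 21.9, 30 and 38.7%) from lowest to highest. In the highest quartile 89.8% of members (86.9 to 92.1%) and 90.6% of all intronic regions overlapped an LY500307 region. In the 2 lower quartiles 9 of 436 members (2.06%, 1.09 to 3.88%) did, against 470 of 5130 intronic regions (9.16%, 8.40 to 9.98%). The intronic regions include the members. For the vehicle list, 6 of 853 members below the highest quartile overlapped a region (0.703%, 0.323 to 1.53%), against 358 of 7980 intronic regions (4.49%, 4.05 to 4.96%). The intervals of members and of intronic regions do not overlap in the 2 lower quartiles for LY500307 or in the 3 lower ones together for vehicle. In the third quartile alone, the LY500307 shares were 22.1% (18.3 to 26.3%) and 25.9% (24.3 to 27.5%), with intervals that overlap. In the highest quartile the vehicle shares were 24.9% (21.4 to 28.7%) and 22.7% (21.2 to 24.3%), with intervals that do. One-mismatch regions between genes gave 1.52, 2.08, 18.1 and 89.8% for LY500307 from the lowest to the highest quartile, beside 1.52, 2.30, 22.1 and 89.8% for the members. No test was made of these differences, and nothing in them was shown to be particular to introns.

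**Figure D3:**
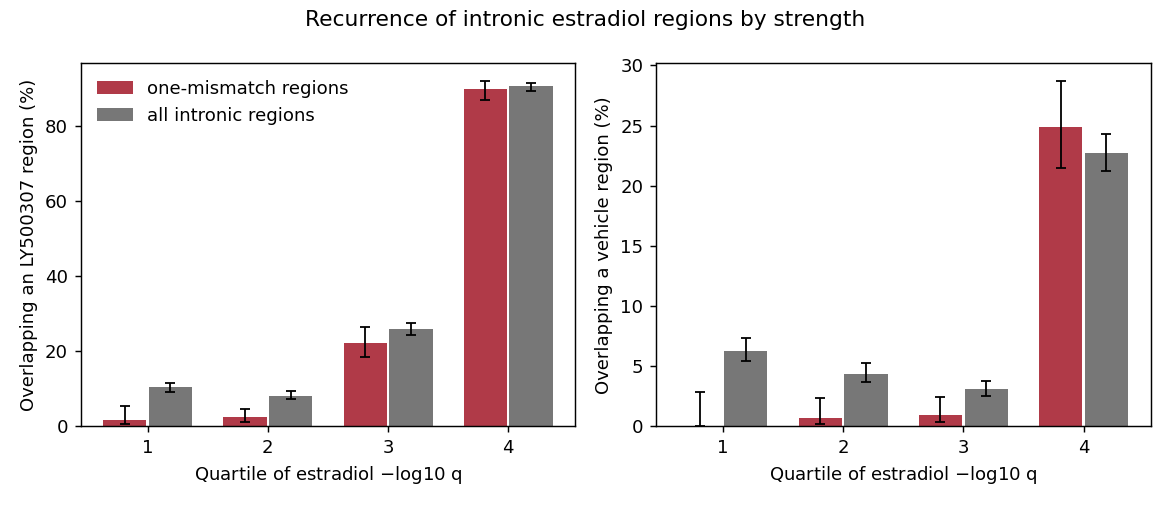
Overlap of members (red) and all intronic regions (grey) with LY500307 regions (left) and vehicle regions (right) by quartile of estradiol −log10 q. The vertical axes give the percentage that overlapped and the error bars are 95% Wilson intervals; in the highest quartile members reached 89.8% for LY500307, and in the lowest 1.52% against 10.3% of all intronic regions.

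Where a member had a partner in another list, the 2 summits were close. The LY500307 summit lay a median of 13 bp (11 to 14, n = 584) from the estradiol summit, and the vehicle summit 9 bp (7 to 12, n = 140). The element was within 100 bp of the LY500307 summit in 568 of 584 pairs (97.3%) and of the vehicle summit in 136 of 140 (97.1%). In 580 of the 584 pairs the estradiol fold was higher than the LY500307 fold, beside 94.4% of all 9082 overlapping estradiol regions. In all 140 vehicle pairs the estradiol fold was higher, beside 88.7% of all 2488. The 4 members with a higher LY500307 fold are named because they were few, after their values were seen. The first, in intron 1 of NR1D1, the gene of the circadian nuclear receptor REV-ERB-alpha, had folds of 56 under estradiol, 60 under LY500307 and 7.31 under vehicle. The other 3 were weak: 7.7 and 7.95 at MAN1C1, 7.04 and 7.53 at WDR1, and 4.83 and 4.93 at HSBP1 in the estradiol and LY500307 lists, with no vehicle region.

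**Figure D4:**
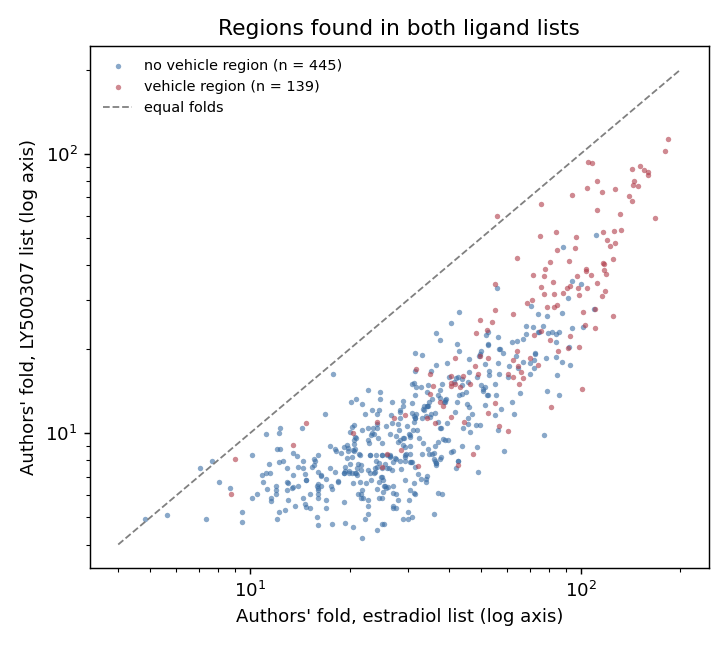
The authors' fold in the estradiol list (horizontal) against the LY500307 list (vertical), both on log axes, for the 584 members found in both. Each point is 1 region, red where a vehicle region overlapped (n = 139) and blue where none did (n = 445), and the dashed line marks equal folds; 4 points lie above it.

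Among the members of the estradiol list alone, the 5 with the highest −log10 q are set beside the shared ones, and the elements of 3 of them are printed. They were weaker than any of the first 10, yet stood well above the median of their class.

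SLC25A28, chr10:99617349-99617373, plus strand, G1A: atttaaaGTCAactTGACCctgata
PDE4D, chr5:60341358-60341382, plus strand, C4G: tgccacGGTgActgTGACCatgccc
SORBS2, chr4:185755134-185755158, plus strand, G1C: aggctacGTCAagaTGACCagcatg

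TMEM202 had a fold of 38, the highest of all 806 members in the estradiol list alone. At SLC25A28, the gene of a mitochondrial iron transporter, the fold was 33.1. PDE4D, a cyclic AMP phosphodiesterase gene, had 32.2, SORBS2, an actin-associated adaptor gene, 30.8, and ZBTB46, a zinc-finger transcription factor gene, 22.7. At the other end, the 3 members with the lowest −log10 q were in SFXN5, PMM1 and ATXN10, with folds of 4.23, 3.74 and 3.45, no partner in either list and a C4G substitution in each.

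The vehicle regions, made without added ligand in cells with induced receptor, were strongest at GREB1, IGFBP4, TMEM120B, KDM4B and RARA by −log10 q. GREB1, a widely used marker of estrogen response that encodes a receptor cofactor, had folds of 105.2 under estradiol, 93.4 under LY500307 and 41.1 under vehicle, the last the highest vehicle fold of any member. TMEM120B had 107.8, 92.5 and 37.3. Both LY500307 folds are among the highest of the members, and the elements were broken at position 3 and position 2.

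GREB1, chr2:11498723-11498747, plus strand, T3G: gatctgGGgCAcacTGACCcacggg
TMEM120B, chr12:121749055-121749079, plus strand, G2T: cagtcaGtTCAcccTGACCctgttt

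The mismatch fell unevenly over the arm. It was at position 3 in 478 members (34.4%), at position 5 in 328 (23.6%), at position 1 in 276 (19.8%), at position 4 in 160 (11.5%) and at position 2 in 149 (10.7%). These shares depend on how often the genome offers each form, so all 24577 intronic one-mismatch elements of hg38 were counted under the same annotation rule, and an element was called occupied when it lay whole within 100 bp of an estradiol summit. Occupied were 1440 of them (5.86%, 5.57 to 6.16%), against 169 of 857 perfect palindromes (19.7%) and 4446 of 374297 elements with 2 mismatches (1.19%). By position, 6.45% were occupied with the mismatch at position 1 (282 of 4372), 2.58% at position 2 (156 of 6045), 7.52% at position 3 (494 of 6567), 4.09% at position 4 (169 of 4129) and 9.79% at position 5 (339 of 3464). Elements broken at position 2, the second G of the arm, had the lowest share, and their interval (2.21 to 3.01%) lies below those of the other 4 positions. Among elements whose 25 bases occur once in hg38, position 2 was again lowest at 3.25% (2.76 to 3.82%), with an interval that overlaps the 4.25% (3.65 to 4.94%) of position 4. A break at position 5, the base next to the spacer, left the highest share (8.84 to 10.8%), but that share fell to 7.36% (6.47 to 8.35%) under the same restriction, below the 8.66% of position 3. That restriction was added after the data were seen, and it keeps near-identical copies that differ by some bases. A family of such copies, within 3 differences of the most often occupied 25 bases, had every mismatch at position 5. It held 131 of the occupied elements and 130 members. Of its 416 intronic elements, 31.5% (27.2 to 36.1%) were occupied, but the family was picked for its occupancy.

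**Figure D5:**
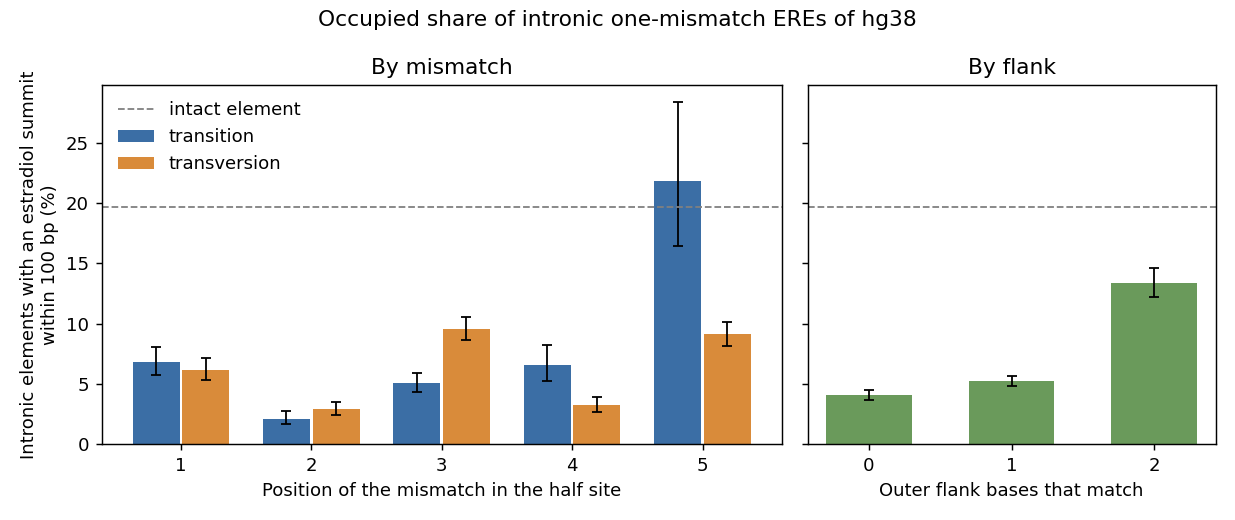
Percentage of intronic one-mismatch elements of hg38 within 100 bp of an estradiol summit, by position of the mismatch (left; blue for transitions, orange for transversions) and by how many of the outer flanking bases match (right). Error bars are 95% Wilson intervals and the dashed line marks the 19.7% of perfect palindromes; the transition at position 5 (A5G) stands highest at 21.9%, and both flanks together give 13.4%.

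Shares differed with the base found as well as with the position. A5G, rare in the genome, was occupied in 40 of 183 cases (21.9%, 16.5 to 28.4%), an interval that holds the 19.7% of perfect palindromes. T3G followed with 217 of 1940 (11.2%, 9.86 to 12.7%) and A5T with 240 of 2195 (10.9%, 9.70 to 12.3%). At the lower end were C4A with 10 of 1219 (0.820%, 0.446 to 1.5%), G1C with 7 of 370 (1.89%, 0.919 to 3.85%), G2C with 45 of 2173 (2.07%) and G2A with 54 of 2529 (2.14%). Among elements whose 25 bases occur once in hg38, A5T stood at 7.15%, G2A at 3.68% (2.79 to 4.85%), A5G at 23.1%, T3G at 12.3% and G2C at 2.03%. The other 8 of the 15 substitutions lay between 4.24% (G2T) and 7.64% (T3A). Within position 4, C4T reached 6.59% (5.24 to 8.26%) and C4A 0.820%, so the same position gave non-overlapping intervals with different bases. Surroundings moved with the substitution: the median GC content of the windows was 39.8% for C4A, 49.8% for A5G and 49.3% for T3G, and 25.7%, 36.1% and 30.3% of these elements lay within 10 kb of a TSS. Occupied shares were 1.56% of elements in windows under 40% GC and 12.3% in those of 60% or more, with a dip between, from 7.73% at 45 to 50% GC to 6.30% at 50 to 55%. They rose with nearness to a TSS, from 3.93% beyond 50 kb to 7.74% within 10 kb. Beyond 10 kb, C4A was occupied in 0.552%, A5G in 18.8% and T3G in 9.46%, and within 10 kb in 1.60%, 27.3% and 15.2%. These 3 substitutions were taken from the top and bottom of the order, and others changed places. Within 10 kb C4T was occupied in 10.1% and T3A in 8.98%, but beyond 10 kb in 5.21% and 7.02%. The part of surroundings in the shares by substitution was not tested.

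Folds of the members were closer to each other across positions than the occupied shares. Median estradiol folds by position ran from 12.9 (11 to 15.4) at position 2 to 15.4 (13.2 to 17.4) at position 3, with overlapping intervals throughout. The share overlapping LY500307 ran from 36.9% (29.8 to 44.6%) at position 4 to 45% (40.6 to 49.5%) at position 3. The rarest forms show the highest medians on few members: 35.5 (13.2 to 96.6, n = 7) for G1C and 24.1 (13.3 to 41.9, n = 9) for C4A. The first 10 elements lack 9 of the 15 substitutions, and the strongest member by −log10 q of 7 of them is printed to show the range of breaks at strong regions. That of G2T, at TMEM120B, was given before.

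TNIP1, chr5:151078895-151078919, plus strand, A5G: aaatcaGGTCggccTGACCcaacca
BSN, chr3:49602208-49602232, plus strand, A5C: tcctcaGGTCctctTGACCtgctgt
RGS6, chr14:72463723-72463747, plus strand, C4A: ctcaaaGGTaAtcaTGACCtggccc
SNX24, chr5:122849371-122849395, plus strand, C4T: gggaaaGGTtAgggTGACCcaatgt
RUSC2, chr9:35517732-35517756, plus strand, T3C: taatgtGGcCActgTGACCctagaa
CRTC1, chr19:18776867-18776891, minus strand, G1C: gatgcacGTCAgcaTGACCtggcga
MYT1L, chr2:2270854-2270878, plus strand, G2C: catcctGcTCAtcaTGACCttcctc

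TNIP1, which encodes an inhibitor of NF-kappa-B signalling, had folds of 118.9 under estradiol, 37.2 under LY500307 and 14.6 under vehicle. SNX24, a sorting nexin gene, had 140.3, 70.6 and 16.7, and RUSC2 had 143.4, 77.5 and 14.4. The SNX24 window held 2 elements of at most 1 mismatch, and the printed one is that nearest the summit. BSN, the gene of the presynaptic scaffold protein bassoon, had 112.0, 79.9 and 18.6. At RGS6, a regulator of G-protein signalling with the seldom occupied C4A, the folds were 104.3, 75.4 and 10.1. CRTC1, a coactivator of CREB, carried G1C and had 96.6, 50.4 and 11.4. MYT1L, a neural zinc-finger factor gene, carried G2C, had 88.1 and 46.5, and had no vehicle region. The 88.1 at MYT1L was the lowest estradiol fold among the strongest members of the 15 substitutions, so strong regions held seldom occupied ones too. Their elements lay 1 bp from the estradiol summit at RGS6, 40 bp at CRTC1, 46 bp at RBM47 (G2A) and 74 bp at MYT1L. At MYT1L the element did not lie whole within 100 bp of the LY500307 summit. The part of these elements in the height of their regions was not tested.

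Occupied shares also differed with the bases beside the 10 fixed ones. The extended palindrome has A before the first arm and T after the last. Elements with neither were occupied in 4.08% of cases (3.69 to 4.50%), with 1 of them in 5.24% (4.86 to 5.65%) and with both in 13.4% (12.2 to 14.6%). Of the members, 415 had both, 618 had 1 and 358 had neither. The members' median estradiol folds ran the other way with overlapping intervals: 13.2 (12 to 14.9) with both, 14.3 (13 to 16.1) with 1 and 15.6 (13.5 to 18.4) with neither. With both flanks present, 20.5% of elements broken at position 5 were occupied, 17.0% at position 3, 16.3% at position 1, 9.17% at position 4 and 4.84% at position 2. Among elements whose 25 bases occur once, position 5 fell to 14.1%, below the 16.7% of position 3 and the 15.9% of position 1. Position 2 was lowest with both flanks and with 1 (1.99%, 1.59 to 2.49%). With neither flank, position 4 (2.47%, 1.83 to 3.32%) and position 2 (2.85%, 2.15 to 3.79%) had overlapping intervals. The spacer varied as well, with C at its first base in 450 members (32.4%) and G at its last base in 535 (38.5%). Elements with G there were occupied in 8.89% (8.21 to 9.62%), with A in 5.48%, with C in 4.74% and with T in 4.10%. The spacers TTA and TTG, both found in the family of repeated copies, were occupied in 97 of 578 (16.8%) and 64 of 452 (14.2%). Shares by spacer base were not taken without that family.

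The elements were near fewer summits of the other 2 lists, which are shorter. They hold 10045 regions for LY500307 and 2905 for vehicle, against 26861 for estradiol. The part of list length in the shares below was not tested. Of the intronic elements, 2.47% (2.28 to 2.67%) lay within 100 bp of an LY500307 summit and 0.618% (0.528 to 0.724%) of a vehicle summit. For LY500307 the shares by position from 1 to 5 were 2.56, 1.03, 3.49, 1.53 and 4.04%, in the same order as for estradiol. The intervals of position 3 (3.07 to 3.96%) and position 5 (3.44 to 4.75%) overlap. Of the 140 elements behind the position 5 share, 56 were of the family of repeated copies, and the order was not taken without it. For vehicle they were 0.595, 0.182, 1.08, 0.388 and 0.808%, with position 3 above position 5 and overlapping intervals. Elements with both flanking bases reached 5.09% for LY500307, against 1.88% with neither. A5G was near an LY500307 summit in 21 of 183 cases (11.5%). The lists share cells and the induced receptor, so these figures are no independent support for those of estradiol.

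Letters of other factors were searched in the 201-base windows with the element masked, on both strands. AP-1 letters (TGACTCA), bound by FOS and JUN dimers, were in 10.8% of members (9.26 to 12.5%), in 2.52% of their windows 2000 bp downstream, in 14.9% of all intronic windows and in 13.8% of all estradiol windows. Another 9 members had AP-1 letters running across the element, which masking hid. TEAD letters (GGAATG), read by the effectors of the Hippo pathway, were in 20.1% of members (18.0 to 22.2%), against 9.99% downstream, 16.7% of intronic and 16.3% of all estradiol windows. SP1 letters (GGGCGG) were in 6.61%, against 6.33% downstream, 16.5% of intronic and 20.8% of all estradiol windows. The members' GC content was 50.2% against 53.7% for all intronic regions, and its part in this was not tested. RUNX letters (TGTGGT) were in 16.3% of members (14.5 to 18.4%) and 12% downstream, beside 17.0% of intronic and 15.6% of all estradiol windows. GATA letters (AGATAA) were in 9.85% and 8.20%, beside 8.77% and 8.23%, and FOXA letters (TGTTTAC) in 1.65% and 2.66%, beside 1.68% and 1.67%. For these 3 the shares in intronic and all estradiol windows were near those of the members. The NF1 letters (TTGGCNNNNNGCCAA) were in none of the 1391 windows. A further 6-base arm (AGGTCA) outside the element was in 36.7% of members (34.2 to 39.2%) and 14.4% of their downstream windows. It was in 48.2% of all intronic and 44.7% of all estradiol windows, but these shares are not like for like. Masking hid the members' intact arm, which had the T that completes AGGTCA on the other strand in 749 of 1391 (53.8%). Of the 10870 intronic regions, 5756 had no element of at most 2 mismatches near the summit. The 36 members with more than 1 element of at most 1 mismatch had a median fold of 16.6 (12.9 to 30.8), beside 14.1 (13.3 to 15.4) for the rest. Members with AP-1 letters had a median fold of 18.2 (13 to 21.9) and those without 14 (13.2 to 15.1). A match is a description of letters and shows no binding.

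Within genes, the members lay farther from transcription starts than intronic regions as a whole. The summit was in intron 1 of a transcript of the host gene in 692 (49.7%, 47.1 to 52.4%), against 57.4% (56.4 to 58.3%) of all intronic regions. The median distance to the nearest TSS was 16954 bp (15061 to 18146) against 10248.5 bp (9726 to 10803). This was not particular to the members. Intronic regions with a perfect palindrome had 15718.5 bp (9388 to 20758) and an intron 1 share of 47.1% (39.7 to 54.5%). The median was 12792 bp (11957 to 13966) with 2 mismatches and 6975 bp (6387 to 7705) with 3 or more. Members made up 10.0% of intronic regions within 10 kb of a TSS, 15.4% of those at 10 to 50 kb and 15.8% beyond. The LY500307 overlap of members showed no order by distance: 43.1% within 10 kb, 40.2% from 10 to 50 kb and 43.3% beyond. The vehicle overlap was 13.9% (11.2 to 17.1%), 8.75% (6.68 to 11.4%) and 5.50% (3.41 to 8.74%) over the same bins, so its first and last intervals do not overlap. Overlap by distance was taken for members only, so neither pattern was shown to be particular to them. For 176 members the nearest TSS belonged to a gene other than the host, and 32 summits lay in introns of more than 1 gene.

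The 1391 members named 1159 host genes, of which 965 held 1 member and 194 held more. With all genes at shared positions counted, 1184 of 19663 protein-coding genes had a member in an intron, 6.02%. ARHGAP26, RUNX1 and SORCS2 held 5 each. ARHGAP26 had estradiol folds of 144.5, 70.1, 24.5, 12.5 and 8.04, and the 3 strongest were in the LY500307 list with 80.1, 18.6 and 12.1. The same gene thus held regions from near the top to below the members' median. RUNX1, which encodes a transcription factor of blood formation that is also active in mammary epithelium, had folds of 25.0, 18.5, 16.5, 13.3 and 10.3, and none in the vehicle list. In SORCS2, a sorting receptor gene, the folds were 55.2, 30.4, 25.7, 20.6 and 10.6, and 4 of the 5 were in the LY500307 list. CMIP had 4, from 17.0 to 115.8, and HIVEP3 4, from 7.57 to 50.5. CDH13 and HRH1 also held 4, with highest folds of 26.0 and 16.0, and were tied with these. Gene length was not taken into account in these counts.

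Lists of genes chosen with earlier results of these data known are described by counts only, against 6.02% of all protein-coding genes with a member. Of 30 classical estrogen response genes, 7 had one, and after IGFBP4, RARA and GREB1 the highest was NRIP1, the gene of the corepressor RIP140, at 74 with estradiol and 26.8 with LY500307, and with no vehicle region. The rest were CA12, PGR and RET with highest folds of 9.80, 9.03 and 5.36. So the list reached from the top member to weak regions, and the progesterone receptor gene PGR, an estrogen target in other breast cells, was among the weak ones.

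Of 36 nuclear receptor genes, 10 held a member: RARA, NR1D1, PPARD, PPARA, RXRA, NR6A1, PGR, RORA, NR5A2 and RARG, with highest estradiol folds from 6.25 at RARG to 180.0 at RARA. PPARD, a lipid-sensing receptor gene, had 38.4 with estradiol and 9.53 with LY500307.

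In TGF-beta and SMAD signalling 7 of 30 genes held a member. SMAD9, a bone morphogenetic protein effector gene, had 62 and 13 in the estradiol and LY500307 lists, LTBP2 42.3 and 20.9, and LTBP3 30.7 and 7.88, both genes of latent TGF-beta binding proteins. None of these 3 was in the vehicle list. The receptors TGFBR2 and TGFBR3 had estradiol folds of 26.5 and 34.3.

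Cell adhesion and signalling genes gave similar counts. Among 26 integrin and laminin genes 7 held a member, led by ITGB5 with 77.3, 31.4 and 8.24 over the 3 lists and ITGB2 with 64.9, 15.1 and 5.49, while ITGA6 had 16.7 in the estradiol list alone. Among 36 receptor tyrosine kinase genes 7 did. AXL, a kinase linked to invasion, had 64.1, 42.4 and 12.8, MERTK 30 and 4.93 with no vehicle region, and FLT1 12.6 in the estradiol list alone. Of 21 Hippo pathway genes 3 did, none above a fold of 12.6: WWTR1, the gene of the coactivator TAZ, with 12.6 and 7.95, WWC1 with 7.03 and STK3 with 5.6. No gene of 16 AP-1 factors and none of 30 cytosolic ribosomal protein genes, taken as a comparison list, held a member. These lists are short beside a general share of 6.02%, and no test was made. Some intronic estradiol region was in 7 and 10 of their genes. The same count was 14 for classical estrogen response, 20 for nuclear receptors and 18 for TGF-beta and SMAD signalling. It was 20 for integrins and laminins, 18 for receptor tyrosine kinases and 14 for the Hippo pathway. The share of all protein-coding genes with any intronic estradiol region was not counted, and the 6.02% is for members only. These counts can therefore not be read as high or low.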

How the data were processed

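Flag-ER-beta ChIP-seq regions of MDA-MB-231 cells were taken from 3 lists in narrowPeak format, 1 per treatment, pooled by the authors and named for ChIP against input. The build hg38 and the tools MACS2 2.1.1.20160309, Bowtie2 2.2.6 and DiffBind stand, without roles, in the submitters' processing notes. How reads with several matches were handled is not given in the sources used here. The authors' deposited fold (a ratio of ChIP over local background at the summit) and −log10 q were used as they stand. The deposited score, 10 times −log10 q as a whole number in all rows of the ligand lists and 99.97% of vehicle rows, was not used. Single libraries, inputs and read depth were not analysed here, so no test and no replicate error could be had.

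Only the 22 autosomes, X and Y were used. Summits were placed against GENCODE release 44 and hg38 sequence, and GGTCANNNTGACC was searched on both strands within 100 bp. Overlap meant at least 1 bp. Shares have 95% Wilson intervals and medians order-statistic intervals. Scripts ran in Python 3.11.15 with numpy 2.4.6 and pandas 2.3.3 and were tested on simulated data, where all 3000 implanted elements were found. Regions were named by rule: the 10 highest by estradiol −log10 q, the 5 highest in no other list, the 5 highest in vehicle, the 3 lowest, the highest for each of 15 substitutions, up to 3 genes per gene list, 5 genes with most members (ties settled by the highest −log10 q), and the 3 on each side of the window's limit. Each took the name of its host gene. Members and lists were chosen with earlier results of these data known. Some regions, sequences and gene lists that these rules reach are not reported here.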

Additional observations from a re-analysis of the deposited data

How the results depend on the processing

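With other windows, promoter limits, annotation classes, thresholds of 5 on −log10 q or fold, or autosomes alone, the number of members ran from 1177 to 1394, and 67 of 74 recomputed values stayed within their counting interval or, for counts of members, within 1.5 times. The 7 that did not are these. A window of 50 bp gave a median element distance of 13 bp, as its construction limits the distance. A promoter of 2500 bp on both sides gave an intron 1 share of 43.6%, since it removes the starts of first introns. When the overlap had to cover 50% of each region, 39.3% of members overlapped an LY500307 region and 5.39% a vehicle region. Within 50 bp of a summit, 5.10% of intronic one-mismatch elements were occupied. Without the family of near-identical repeated copies, 37.9% of members' mismatches were at position 3 and 5.42% of elements were occupied. This alternative was chosen after seeing the data. Elements whose 25 bases occur once, also chosen after seeing the data, gave 6.12%. The alternative restricted to sequence that is not soft-masked was not run, because the genome used is written in capitals throughout. No library could be left out, and no paired analysis was possible because each list pools its libraries and no result comes from a test. No depth is known, so a member without a partner in the LY500307 or vehicle list may lie below that list's limit of detection.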

Other observations

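By chromosome, members were from 10.6% of intronic regions on chromosome 10 (62 of 585) and chromosome 11 (71 of 669) to 22.6% on chromosome 13 (28 of 124). Some members lay close together: 50 neighbouring pairs had summits within 5 kb of each other and 103 within 20 kb.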
